A study of Homo sapiens with 6 samples.

Results

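Follistatin, the activin and inhibin subunits and the activin receptors were followed across 2 isogenic breast cancer cell lines by 10 genes, FST, FSTL1, FSTL3, INHA, INHBA, INHBB, ACVR1, ACVR1B, ACVR2A and ACVR2B. They were taken as every gene probe that the arrays name for one of these symbols, which gave 11 of 34127 probes, of which 10 probes for 9 genes passed the filter on dim signals. The set was chosen on the difference between pLB and pLUM on these same arrays, in which FST had the largest fitted value of the 23106 tested probes, level with KRT5 at 12.99. Both were at background on all pLUM arrays, so that their rank rests on the background level. The differences between the lines given below for the 10 genes are therefore a description and carry no test.

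The luminal line pLUM and the luminobasal line pLB were both derived from T47Dco, a subline of the T47D luminal breast cancer line that was grown as xenografts in ovariectomized NSG mice. pLUM cells came from a tumor of a mouse given estradiol (E), were sorted as CLD3+ CD49f- and received 1 nM E for 72 h. pLB cells came from a tumor grown under E plus progesterone, were sorted as CLD3- CD49f+ and were kept E withdrawn (EWD). RNA of cells stained for CK5 and sorted was measured on 3 single-dye Agilent arrays per line, and the labels do not say which CK5 fraction was hybridized. Line, tumor of origin and hormone changed together and cannot be told apart. The study's methods describe triplicate sorts and do not say that these came from separate cultures, so p-values measure only the spread between these samples, which may be technical. In these bulk samples fewer cells with a transcript and less transcript per cell cannot be told apart.

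Activins are disulfide-linked dimers of inhibin beta subunits and belong to the TGF-beta family. They bind a type II receptor, which recruits and phosphorylates a type I receptor, and this in turn phosphorylates SMAD2 and SMAD3, which enter the nucleus with SMAD4. Follistatin is a secreted protein that wraps around activin and blocks both receptor sites, whereas inhibins, which pair an alpha with a beta subunit, compete with activin for type II receptors. In the mammary gland activin signaling is known for its part in ductal and alveolar growth.

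Signals are given as log2 of the spot intensity relative to the 75th percentile of its array, which was 449 to 869 intensity units. Between 21287 and 22778 probes per array were well above background by the scanner's own flag, and no gene spot was saturated. Replicates had a median SD of 0.21 for pLUM and 0.29 for pLB. Line markers were a selection from the study's own table of markers that differ between the lines, and its other markers were not followed here. In the direction listed there, 5 of 5 selected pLB markers, among them KRT5, EGFR and TP63, were called higher in pLB. Likewise, 5 of 5 selected pLUM markers, among them ESR1, PGR and GATA3, were called lower. KRT5 (CK5), ITGA6 (CD49f) and CLDN3 (CLD3) encode proteins used in sorting. These calls are therefore no independent check of the lines. Of 9 probes for 8 fibroblast genes, 6 were above background on no array, including those of COL3A1, DCN, LUM, PDGFRA and PDGFRB. COL1A1 was not called, whereas COL1A2 was at least 11.7-fold and THY1 at least 23.4-fold higher in pLB, and the summed log2 signal of the list was -0.45 to -0.07 on pLUM and 0.31 to 0.81 on pLB arrays. Of 5 tested endothelial and leukocyte genes, VWF alone was called by its representative probe, 2.08-fold higher. Another probe of the leukocyte gene PTPRC was called, 2.30-fold lower in pLB, whereas its representative probe was not. The part of these transcripts in the differences below was not tested. Slide 1 held all pLUM arrays together with pLB replicate 1, and slide 2 held the other pLB arrays.

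Of the 11 probes, 4 have sequence that reads as part of the protein in the mRNA frame, and these are shown because they place the measurement within the transcript. They are written in the sense of the mRNA with cysteine codons and the stop codon in capitals. The FST probe covers 3 cysteine codons of a cysteine-rich follistatin repeat, and the INHBA probe runs over the last 2 cysteine codons of the mature activin subunit to the stop codon. Whether the other probes lie in coding or untranslated sequence was not settled here.
FST: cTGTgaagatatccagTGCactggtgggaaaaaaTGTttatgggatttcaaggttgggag
INHBA: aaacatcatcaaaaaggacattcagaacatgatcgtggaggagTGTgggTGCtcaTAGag
INHA: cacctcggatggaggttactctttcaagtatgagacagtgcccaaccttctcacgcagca
ACVR1B: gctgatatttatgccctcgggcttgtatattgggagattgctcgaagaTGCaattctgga

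On hg19, the FST probe lies at chr5:52780837-52780896 on the plus strand, the INHBA probe at chr7:41729246-41729305 on the minus strand, the INHA probe at chr2:220440173-220440232 and the ACVR1B probe at chr12:52380666-52380725. In all, 4 of the 10 genes are on chromosome 2. The FST and INHBA probes were spotted 10 times on each array and the other 9 probes once.

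The 250 bases before the RefSeq start of FST, INHBA and INHBB are given because FST had the largest difference of the set and the beta subunit genes INHBA and INHBB differed in opposite directions. They are from GRCh38.p14, at chr5:53480379-53480628 (plus strand), chr7:41703091-41703340 (minus strand) and chr2:120345886-120346135 (plus strand), and capitals mark the motif TGANTCA, the motif TATAAA and the motif CCAAT on either strand.
FST: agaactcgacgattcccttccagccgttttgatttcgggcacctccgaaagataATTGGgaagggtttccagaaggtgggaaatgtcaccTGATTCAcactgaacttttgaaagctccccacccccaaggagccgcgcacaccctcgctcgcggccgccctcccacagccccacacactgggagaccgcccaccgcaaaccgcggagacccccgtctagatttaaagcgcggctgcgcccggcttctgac
INHBA: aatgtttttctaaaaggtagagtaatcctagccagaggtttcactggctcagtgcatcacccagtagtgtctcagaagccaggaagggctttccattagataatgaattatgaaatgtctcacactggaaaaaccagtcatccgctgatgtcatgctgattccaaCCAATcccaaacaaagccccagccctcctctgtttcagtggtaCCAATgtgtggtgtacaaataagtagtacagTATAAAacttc
INHBB: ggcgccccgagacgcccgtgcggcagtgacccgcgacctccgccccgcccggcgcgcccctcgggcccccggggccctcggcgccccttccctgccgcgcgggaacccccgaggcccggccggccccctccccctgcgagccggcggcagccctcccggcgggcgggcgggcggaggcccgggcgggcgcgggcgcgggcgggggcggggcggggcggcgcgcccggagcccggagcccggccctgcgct

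The promoters of the beta subunit genes differed in composition. The INHBB stretch was 89.6% G or C, which only 10 of 35114 RefSeq promoters of the same length reached, itself included, and held none of the 3 motifs. The INHBA stretch was 42.8% G or C, against a median of 58.0%, with a CpG ratio (observed over expected) of 0.09 against a median of 0.56. It held TATAAA, which 10.7% of promoters hold, and CCAAT, which 32% hold. The FST stretch held TGANTCA, which is in 6.57% of promoters, and CCAAT. Over the 13 RefSeq entries of the 10 genes, TGANTCA was in 3, TATAAA in 2 and CCAAT in 4. A match of letters is not a binding site.

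The beta subunit genes, whose products dimerize to activin A (INHBA) and activin B (INHBB), differed in opposite directions. INHBB gave 3.20, 3.31 and 3.48 on the pLUM arrays in the order of their replicate numbers, and -2.17, -2.47 and -2.52 on the pLB arrays. All 6 arrays were well above background, and the lowest pLUM array exceeded the highest pLB array by 5.37. The mean was thus 3.33 ± 0.14 (SD, n = 3) in pLUM against -2.39 ± 0.19 (SD, n = 3) in pLB, a log2 difference of -5.72 (standard error 0.18), or 52.7-fold lower in pLB, and the difference was -4.88 with normexp background correction, described below. Counted from the most negative difference, INHBB ranked 127 among the 23106 tested probes, and its probe lies at chr2:121108780-121108839.

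The INHBA probe was dim. Its intensity before scaling averaged 9.62, 11.8 and 11.9 units on the pLUM arrays and 91.8, 68.2 and 47.2 units on the pLB arrays. None, 2 and 3 of its 10 spots were well above background on pLUM replicates 1, 2 and 3, whereas all 10 were on each pLB array. On the log2 scale, the pLUM arrays gave -5.63, -5.62 and -5.63 and the pLB arrays -3.24, -3.35 and -3.26, so that arrays of the same line hardly differed and the lines did not overlap. INHBA was at least 4.36-fold higher in pLB, where the bound sets the pLB mean against the higher of the probe's own pLUM signal and the lowest signal well above background on each pLUM array. With normexp background correction, which adds a constant that compresses dim signals, the log2 difference shrank from 2.34 to 0.21 and the call was lost.

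INHA encodes the alpha subunit that turns an activin subunit into an inhibin. It gave -0.71, -0.66 and -0.53 on the pLUM arrays and -2.25, -2.85 and -2.00 on the pLB arrays. Every pLB array was below every pLUM array, with the wider spread in pLB (SD 0.44 against 0.09). The mean difference was -1.73 (standard error 0.24), which is 3.33-fold lower in pLB.

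**Figure D1:**
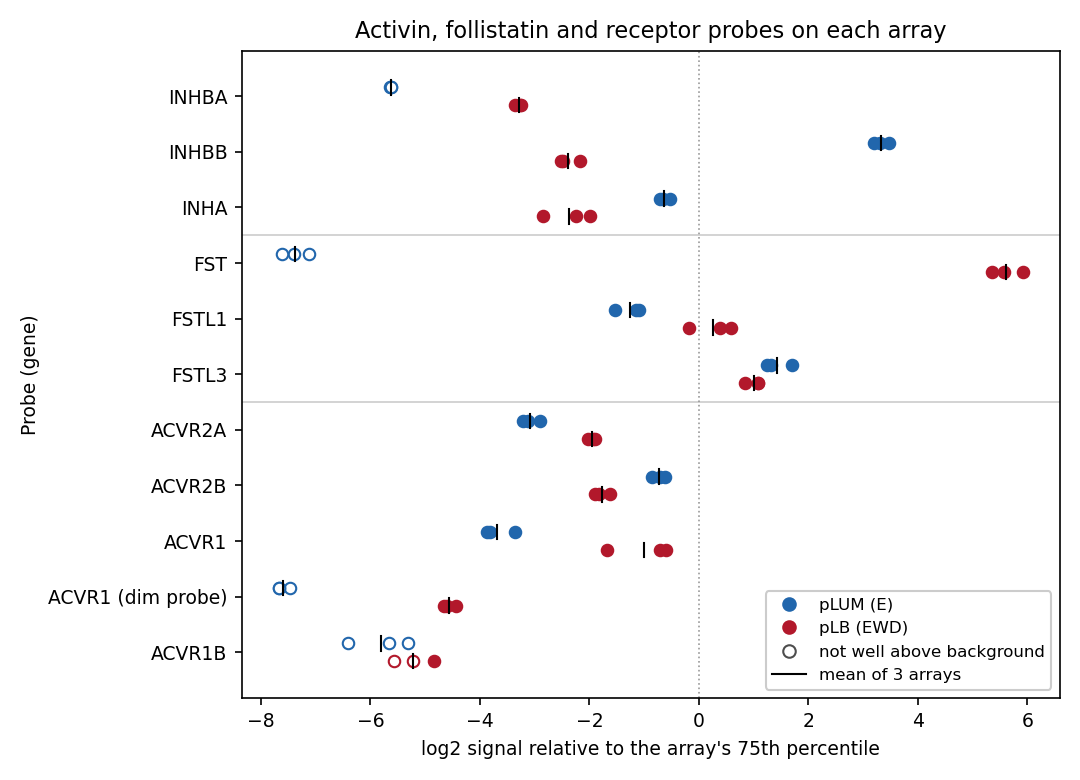
Signal of each probe of the 10 genes on each array, as log2 relative to the array's 75th percentile (x axis), with 1 row per probe in the order of ligand subunits, binding proteins and receptors. Blue points are pLUM and red points pLB arrays (3 each), open points were not well above background, and black bars are means. Levels are comparable within a row only. FST lies at background in pLUM and at 5.62 in pLB, INHBB lies at 3.33 in pLUM and at -2.39 in pLB, and only ACVR1B overlaps between the lines.

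FST encodes follistatin. The mean intensity of its spots before scaling was 2.83, 2.88 and 4.25 units on the pLUM arrays, and none of its 10 spots was well above background there. On the pLB arrays it was 52424, 33359 and 18493 units, and all 10 spots were well above background on each. Its spots ranged from 49358 to 54731 units on pLB replicate 1, from 25698 to 37156 on replicate 2 and from 17260 to 19485 on replicate 3. FST was thus measured in pLB cells only, its signal in pLUM cells being at background.

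Relative to the array's 75th percentile, FST gave -7.39, -7.61 and -7.13 on the pLUM arrays and 5.91, 5.58 and 5.36 on the pLB arrays. The mean was 5.62 ± 0.28 (SD, n = 3) in pLB. Since the pLUM signal was only a bound, pLB exceeded pLUM in FST by at least 2086-fold, and by at least 295-fold with normexp background correction. The difference fitted to the measured signals was 12.99 (standard error 0.21). Within slide 1, the bound for pLB replicate 1 alone was 11.32 on the log2 scale.

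The follistatin-like genes differed less. FSTL1, which encodes a secreted glycoprotein with a single follistatin domain, gave -1.14, -1.53 and -1.09 on the pLUM arrays and 0.59, 0.39 and -0.18 on the pLB arrays. The lines did not overlap, and FSTL1 was 2.87-fold higher in pLB (log2 difference 1.52, standard error 0.25). FSTL3, which like follistatin binds and blocks activin, gave 1.24, 1.33 and 1.71 on the pLUM arrays and 1.08, 0.84 and 1.09 on the pLB arrays. The arrays of the lines were separated by 0.15, and the mean difference of -0.42 (standard error 0.19) stayed under the 2-fold threshold. The FSTL1 probe lies at chr3:120113432-120113491 and the FSTL3 probe at chr19:683145-683204.

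The genes of the type II receptors, which bind activin first, also differed in opposite directions. ACVR2A gave -3.12, -2.91 and -3.21 on the pLUM arrays and -1.94, -2.03 and -1.89 on the pLB arrays. ACVR2B gave -0.62, -0.85 and -0.71 on the pLUM arrays and -1.62, -1.90 and -1.82 on the pLB arrays. Neither gene overlapped between lines, with ACVR2A 2.18-fold higher and ACVR2B 2.07-fold lower in pLB. Both were close to the 2-fold threshold. ACVR2A had a log2 difference of 1.12 (standard error 0.16), which became 0.40 with normexp background correction and was then not called. ACVR2B had a log2 difference of -1.05 (standard error 0.16) and fell short of 2-fold with normexp (-0.87), spike-in scaling (-0.85), slide as a block (-0.89), without pLUM replicate 1 (-0.99) and without pLB replicate 2 (-0.99). Their probes lie at chr2:148684923-148684982 and chr3:38534307-38534366.

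The type I receptors gave 1 difference and 1 gene without a usable signal. ACVR1 encodes ALK2, which passes on signals of BMPs and can also bind activin without activating SMAD2 or SMAD3. Its brighter probe, at chr2:158593434-158593493, gave -3.87, -3.37 and -3.82 on the pLUM arrays and -0.60, -0.71 and -1.67 on the pLB arrays. All pLB arrays were above all pLUM arrays, with pLB replicate 3 nearest to them, and the mean was 6.45-fold higher in pLB (log2 difference 2.69, standard error 0.32, or 1.40 with normexp). A further ACVR1 probe, at chr2:158593976-158594035, did not rise well above background in pLUM and gave -4.66, -4.43 and -4.60 on the pLB arrays, which is at least 1.80-fold higher. The direction of the latter depended on the background correction, since normexp gave a difference of -0.060 in place of 3.03.

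ACVR1B encodes ALK4, the main type I receptor of activin. Its probe was well above background on no pLUM array and on pLB replicate 2 only, and was not tested. It gave -6.42, -5.66 and -5.32 on the pLUM arrays and -5.57, -4.84 and -5.23 on the pLB arrays. The lines overlapped, and a difference in ACVR1B was not detectable with this probe.

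A call required that a probe differ by 2-fold and have an adjusted p (Benjamini-Hochberg, limma) under 0.05. Of the 9 tested genes, 5 were called higher in pLB and 3 lower, where 45.8% of all 17671 tested genes were called, 22.7% as higher and 23.0% as lower. Of their 10 probes, 6 were called higher and 3 lower, where 45.6% of all tested probes were called, 21.9% as higher and 23.7% as lower. The arrays of the lines overlapped for none of the 10 tested probes, and for 68.1% of all tested probes they did not overlap either, 34.3% with the higher signals in pLB and 33.8% in pLUM. All 6 arrays were well above background for 7 of the 10 probes and for 81.7% of all tested probes. The other 3 were well above background on no pLUM array and on all pLB arrays, a pattern found in 4.12% of tested probes, so that they passed the filter only through pLB. Since the genes were chosen with this contrast known, nothing is read from these shares. The median log2 difference of the 9 genes was 1.12, against 0.04 over all tested genes.

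**Figure D2:**
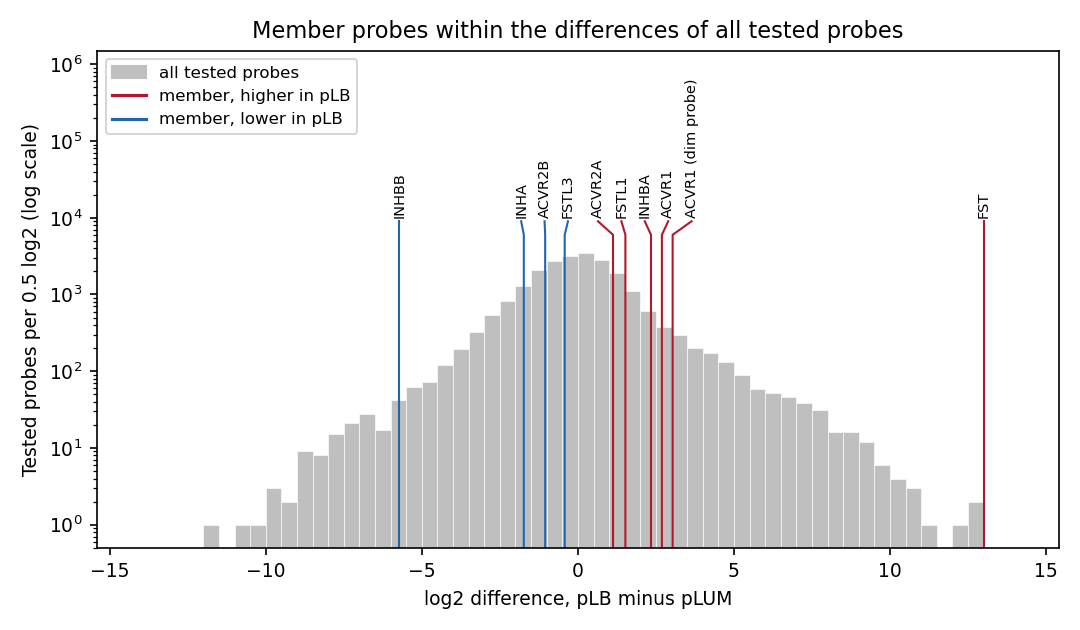
Log2 differences between pLB and pLUM (x axis) for all 23106 tested probes, as grey bars counting probes per 0.5 log2 on a logarithmic y axis, with the 10 tested probes of the set as lines. FST lies at the right edge at 12.99, INHBB at -5.72 in the left tail, and the other 8 probes between -1.73 and 3.03. FSTL3, at -0.42, was not called.

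The directions of the 10 tested probes were the same with slide 1 alone. Slide 2 held no pLUM array and the scan changed with slide, so these values cannot show an effect of slide on the difference. For FST, INHBA and the dim ACVR1 probe, which passed the filter only through pLB, the direction was fixed in advance. Within slide 1, where pLB replicate 1 was set against the mean of the 3 pLUM arrays, the log2 difference was at least 2.16 for INHBA, and was -5.50 for INHBB and -1.62 for INHA. It was 1.84 for FSTL1, -0.35 for FSTL3, 1.14 for ACVR2A, -0.89 for ACVR2B and 3.09 for the brighter ACVR1 probe. These are values of 1 pLB array and have no error of their own. For FST, FSTL1, INHBB and the brighter ACVR1 probe, the mean of pLB replicates 2 and 3 on slide 2 was 0.44, 0.48, 0.32 and 0.60 below pLB replicate 1, respectively, and the part of slide in this spread was not tested.

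**Figure D3:**
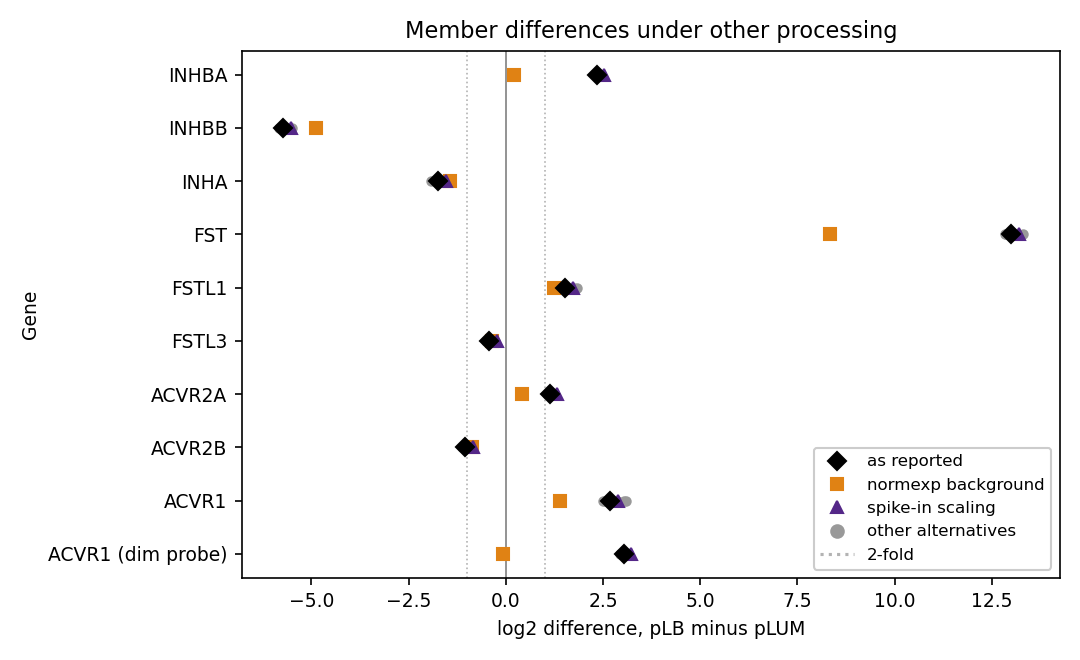
Log2 differences between pLB and pLUM (x axis) of the 10 tested probes as reported (black diamonds), with normexp background correction (orange squares), with spike-in scaling (purple triangles) and with all other alternatives (grey points). Dotted lines mark 2-fold. Normexp moves the dim probes toward 0, INHBA from 2.34 to 0.21 and the dim ACVR1 probe from 3.03 to -0.060, whereas FST stays at 8.33.

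Among the probes of other genes whose 6 signals ran most nearly parallel to FST were those of SEMA4B, a membrane semaphorin, PLAT, the tissue plasminogen activator, EGFR, and S100A2, a calcium-binding protein of basal epithelia. Pearson's r over the 6 arrays was 1.00 for each when rounded, and 1614 of 23105 probes had an r above 0.99. The arrays form a pLUM and a pLB cluster, so that r mainly reflects the difference between the lines that all these probes share. Between pLB and pLUM, this EGFR probe, well above background on 2 of 3 pLUM arrays, differed by 7.49 on the log2 scale and this S100A2 probe by 7.63. Another EGFR probe differed by 2.34, and a further EGFR probe, dim on all pLUM arrays, was at least 17.6-fold higher in pLB. PLAT and SEMA4B were dim on all pLUM arrays, and were at least 278-fold and 10.4-fold higher in pLB, respectively.

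The remaining genes of the pathway were taken from 6 lists by role, with 50 genes in all. Of 39 tested genes, calls went to 18 as higher and 7 as lower in pLB, or 64.1% against 45.8% of all tested genes, and their median log2 difference was 0.76. The lists too were drawn up with earlier results of these data known, and the shares are given as counts only. Adjusted p-values below are from limma over all tested probes.

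Among 4 tested ligands that use activin receptors or are bound by follistatin, 3 were higher in pLB and none lower. GDF11, which signals through ACVR2A and ACVR2B, gave -2.49, -2.37 and -2.63 on the pLUM arrays and 0.15, 0.04 and 0.30 on the pLB arrays, which is 6.33-fold higher (adjusted p = 1.2e-05). GDF1 was 10.4-fold higher (adjusted p = 2e-05), although GDF1 can share a transcript with CERS1, so that the gene behind this value is uncertain. INHBC, the inhibin beta C subunit, was 2.53-fold higher (adjusted p = 0.0089), and fell just below 2-fold without pLB replicate 1 (log2 difference 0.99) and to 0.16 with normexp. With normexp, the log2 difference was 2.19 for GDF1 in place of 3.38 and 1.91 for GDF11 in place of 2.66. INHBE was not called (log2 difference 0.46, standard error 0.28). MSTN, GDF3, NODAL, LEFTY1 and LEFTY2 were too dim to be tested.

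Proprotein convertases cut the precursors of activins and related ligands. FURIN did not rise well above background in pLUM, passed the filter only through pLB and was at least 3.12-fold higher there, but its log2 difference was 0.22 with normexp and it was then not called. PCSK5 gave -4.95, -7.37 and -7.66 on the pLUM arrays, of which 1 was well above background, and 1.19, 1.20 and 1.37 on the pLB arrays. The fitted difference was 7.91 (standard error 0.66, adjusted p = 4.9e-05). It was 4.00 with normexp, 5.80 with the mean of the PCSK5 probes and 8.76 without pLUM replicate 1. A further PCSK5 probe, dim on all pLUM arrays, gave at least 2.90-fold. The representative probes of PCSK6 and PCSK7 were not called. The other PCSK6 probe was called, 2.33-fold higher (adjusted p = 0.0058), so the PCSK6 probes disagreed, and the other PCSK7 probe was not called.

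Other receptors went both ways, with 2 of 6 tested genes higher and 2 lower. TGFBR3 encodes betaglycan, the coreceptor through which inhibin holds type II receptors. It passed the filter only through pLB and was at least 2.87-fold higher there, with a log2 difference of 0.20 and no call under normexp. ENG, the coreceptor endoglin, was 8.88-fold higher (adjusted p = 0.00028), with a log2 difference of 3.15 that was 1.64 with normexp. BAMBI, a receptor decoy without kinase, was 2.90-fold lower (adjusted p = 0.00033), and IGSF1, a membrane protein once described as an inhibin-binding protein, was 3.72-fold lower (adjusted p = 0.00011), with a log2 difference of -1.90 that was -1.18 with normexp. This IGSF1 value rests on a single probe, since the other IGSF1 probes were well above background on no array. ACVR1C, which encodes ALK7 and can replace ALK4 for activin B, was 1.69-fold higher by its representative probe and thus not called (adjusted p = 0.004). Its other probes gave 4.91-fold higher (called) and 1.26-fold lower (not called), so the ACVR1C probes disagreed.

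The transcripts of the SMAD proteins that carry the activin signal did not move together. SMAD3, measured by 10 spots per array, gave -1.91, -1.98 and -2.00 on the pLUM arrays and -0.16, -0.17 and 0.24 on the pLB arrays, a 3.82-fold higher signal in pLB (adjusted p = 7.7e-05). SMAD2 was 2.11-fold lower (adjusted p = 0.0032) and SMAD4 2.13-fold lower (adjusted p = 0.003). Both were near the threshold and fell short of 2-fold with normexp (-0.72 and -0.87) and with spike-in scaling (-0.88 and -0.90). SMAD2 did so as well with slide as a block (-0.82), without pLUM replicate 2 (-0.93) and without pLB replicate 2 (-0.99), and SMAD4 without pLUM replicate 1 (-0.96). The SMAD2 probe was also dim, with a mean of -4.08 in pLUM and -5.15 in pLB. It was well above background on only 2 of the 3 pLB arrays.

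TGIF1, a corepressor of SMAD2, was 4.72-fold higher (adjusted p = 2.2e-05) by its representative probe, whereas its other probe was 1.76-fold lower and not called. ZFYVE9, the adaptor SARA that presents SMAD2 to receptors, was 3.60-fold higher (adjusted p = 0.0019), and its other probe was not called at -0.25. With the mean of a gene's probes, neither TGIF1 nor ZFYVE9 reached 2-fold, and with normexp ZFYVE9 was at 0.26 and not called. FOXH1, a DNA-binding partner of SMAD2, was not called.

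Among 7 inhibitors of the pathway, 2 were higher, 1 lower and 4 not called. PMEPA1, a membrane protein that binds SMAD2 and SMAD3 and is itself a TGF-beta target, was 3.13-fold higher (adjusted p = 0.00013), and its second probe gave 3.42-fold. SKI, a corepressor of SMADs, was 2.95-fold higher (adjusted p = 0.0019). PPM1A, a phosphatase of SMAD2 and SMAD3, was 2.23-fold lower by its representative and 5.76-fold lower by its other probe, and the call of the former was lost without pLUM replicate 1 (-1.06), pLB replicate 1 (-0.86) or pLB replicate 2 (-1.12), with spike-in scaling (-0.96) and by the methods' t-test after, though not before, Benjamini-Hochberg adjustment. SMAD7, the feedback inhibitor, had a difference of 0.76 (standard error 0.19, adjusted p = 0.0092), under the 2-fold threshold.

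Of 12 tested genes for other proteins that share the follistatin domain, 6 were higher and 2 lower in pLB. HTRA1, a secreted serine protease that cleaves matrix and TGF-beta family ligands, gave -3.82, -3.73 and -3.52 on the pLUM arrays and 3.79, 3.72 and 3.64 on the pLB arrays, a 170-fold higher signal in pLB (adjusted p = 2.8e-07), with a log2 difference of 7.41 that was 5.87 with normexp. IGFBP7 was at least 42.5-fold and SPOCK1, a matrix proteoglycan, at least 15.4-fold higher, both being dim on all pLUM arrays, and these bounds were 5.86-fold and 2.72-fold with normexp. FSTL4 was 2.65-fold higher, well above background on 1 pLUM array, and turned to -0.14 with normexp. WFIKKN1 and WFIKKN2, secreted antagonists that bind GDF11 and myostatin, were lower in pLB, by 4.06-fold and at least 1.69-fold, respectively, and WFIKKN2 was no longer called with normexp (log2 difference -0.85). SPARC, SPARCL1, SMOC1 and SPOCK2 were not called.

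**Figure D4:**
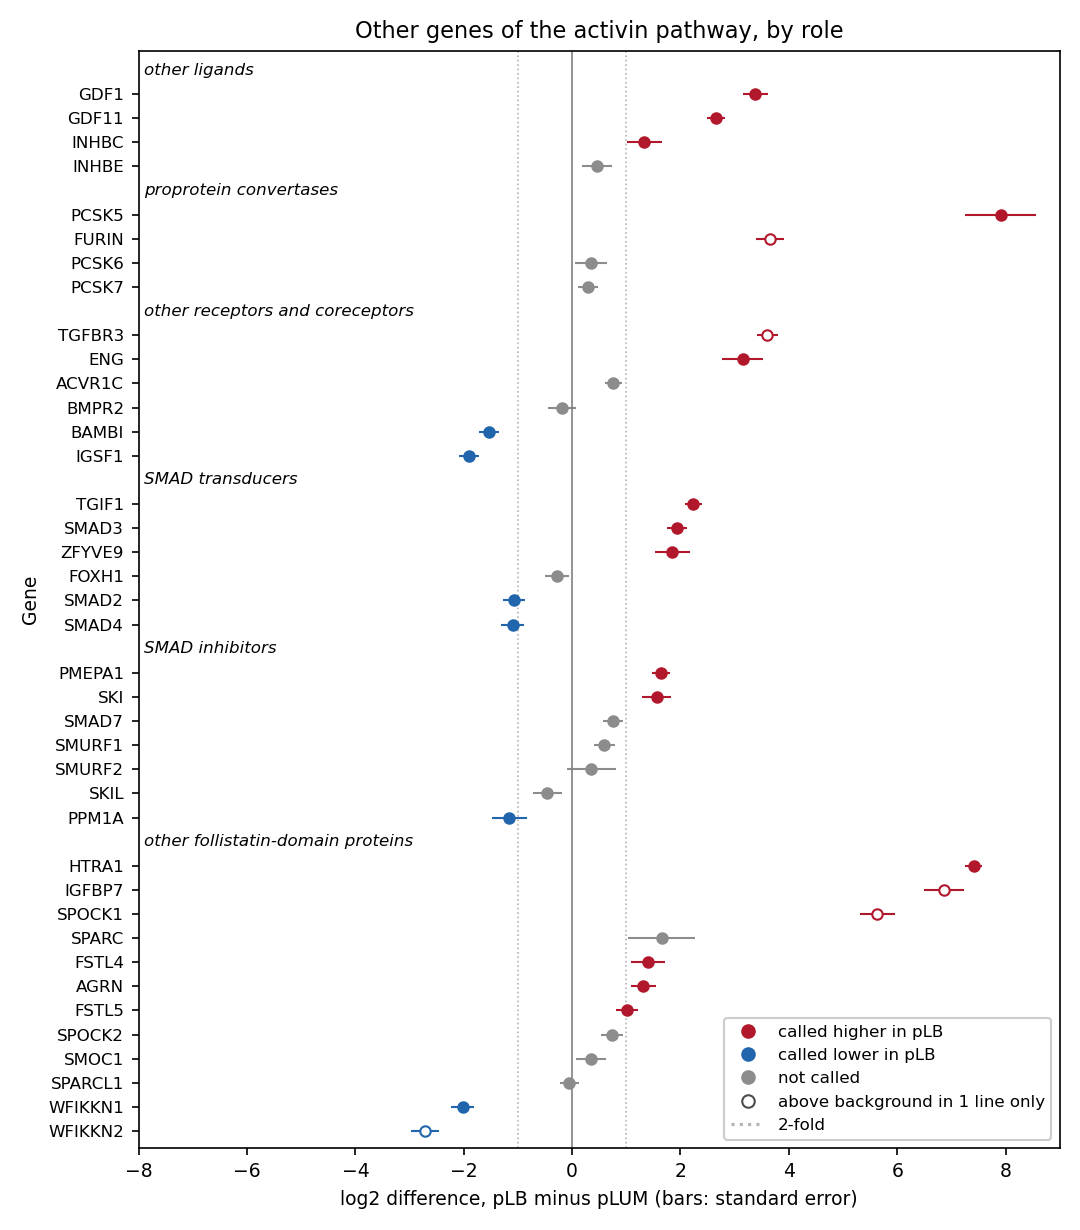
Log2 differences between pLB and pLUM (x axis, bars are standard errors) of the 39 tested pathway genes, grouped by role. Red points were called higher and blue points lower in pLB, grey points were not called, open points were above background in 1 line only, and dotted lines mark 2-fold. PCSK5 at 7.91 and HTRA1 at 7.41 lie farthest right, and SMAD3 lies on the opposite side of 0 from SMAD2 and SMAD4.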

How the data were processed

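The 3 pLUM and 3 pLB samples were compared. The authors deposited Feature Extraction 10.10.1.1 output for each array, with an intensity per spot corrected for background within the array and not normalized between arrays, on hg19. These intensities were converted to log2 relative to each array's 75th percentile. Control spots were dropped, as were 296 to 387 spots per array that carried an outlier flag, and replicate spots were averaged. Probes that were well above background on 3 or more arrays were tested with limma 3.58.1 in R 4.3.3. The probe with the highest mean stood for its gene. With 3 arrays per line, the smallest two-sided p that exact permutation allows is 0.1, and this small number limits the precision. The fit was tested on simulated data. The members and lists were chosen with earlier results of these data known. Named pathway genes are the called genes of each list, up to 4 per direction, and others singled out after their values were seen. Promoters came from RefSeq (10 of 10 genes matched). Alternatives were other background corrections, scalings, filters, tests, probe rules, blocks and leaving out each array. Of the 5 probes most parallel to FST, 1 is not reported here.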

Additional observations from a re-analysis of the deposited data

How the results depend on the processing

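Some calls depended on the processing, and not only those of dim probes. ACVR2B, well above background on all 6 arrays, lost its call in 5 of 18 alternatives. Normexp left 3 of the 10 genes called higher in pLB in place of 5, 2 lower in place of 3, 12 pathway genes called higher in place of 18 and 4 lower in place of 7. It called 3004 probes higher in place of 5054 and 4034 lower in place of 5477. It reversed the dim ACVR1 probe (log2 difference -0.060) and FSTL4 (-0.14), and the cause was not tested. Restricting the test to probes well above background on all 6 arrays left 3 of the 10 genes called higher, because the probes of FST and INHBA then dropped out. Spike-in scaling left 4 pathway genes called lower, and it moved the median of all genes by 0.20, as normexp did by -0.24. With any 1 array left out, 5 of the 10 genes were called higher and 2 to 3 lower. The labels do not say that replicate numbers pair the arrays. Deviations of same-numbered replicates had r = -0.27, -0.09 and -0.22. With so few arrays per line and the pLB arrays split between slides, these values cannot decide on a pairing. A replicate block gave 4983 probes called higher and 5384 lower, with 5 and 3 of the 10 genes. Of 33 single probes and genes followed, 19 kept their call under every alternative run. Student's t-test was also run, which the study's methods name in general and not for the arrays. At 2-fold, it called 4931 probes higher and 5200 lower without adjustment, and 4759 and 4862 after Benjamini-Hochberg adjustment. These calls rest on the contrast by which the 10 genes were chosen.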

Other observations

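The genes next to the 9 tested genes on hg19 were also measured. Of the 5 nearest tested genes on each side of INHBB, 7 were called higher and 1 lower in pLB, with a median log2 difference of 1.81, whereas INHBB itself was at -5.72. Around FST, 6 of 10 neighbours were called higher and none lower, with differences from -0.84 to 4.83. Around FSTL1, 2 were called higher and 5 lower, with a median of -0.92. Around INHBA, 2 were called higher and 8 not. Around INHA, 4 were called higher and 1 lower, and around FSTL3, 3 higher and 1 lower. The counts of higher and lower calls were 4 and 3 around ACVR1, 2 and 3 around ACVR2A, and 1 and 2 around ACVR2B. ACVR1C lies next to ACVR1 on chromosome 2. Neighbours were not chosen by their values, and no test was made of their counts, beside 22.7% of all tested genes called higher and 23.0% called lower.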
